A study of Mus musculus with 4 samples.

Results

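The genes described here are 8 members of the mouse complement system, C2, C3, C4b, C1ra, Cfb, Serping1, C3ar1 and C5ar1, taken with all of their exons in the deposited exon table. They account for 175 of the 234718 listed exons and for 8 of the 22835 genes that received a level. RNA was sequenced in a study that asked whether the melanocyte regulator MITF redirects other cells towards the melanocyte fate. The table holds 1 library for each of 3 conditions that could be matched to a sample. MEF was wild-type mouse embryonic fibroblasts at passage 3, without doxycycline (Dox). Dox (-) was Mitf knock-in MEFs at passage 5 without Dox, and Dox (+) was the knock-in MEFs at passage 5 after 6 days of Dox. Both knock-in libraries shared the reverse tetracycline transactivator M2rtTA at ROSA26, the melanocyte isoform of Mitf under a Dox-responsive element downstream of Col1a1, an mCherry transgene and puromycin resistance. They derived from 1 targeted embryonic stem cell clone through chimeric embryos, so that host cells could be present before selection. The library labelled MEF does not hold the values that the study tabulated for MEF, so every comparison with it describes that library. Primary melanocytes were not analysed here.

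Complement is a cascade of plasma and tissue proteins that marks targets for removal and calls in leukocytes. The classical and lectin routes are started by C1q or lectins, whose partner proteases cleave C4 and C2. The alternative route runs on C3 and factor B. Every route meets at C3, whose fragments and those of C5 act on receptors of myeloid cells. Liver makes most of the plasma pool, whereas fibroblasts and macrophages make many components locally.

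Depth was close to equal. Values below 200 reads turned into whole reads (within 0.02 of a read) for 96.8 to 97.1% of exons when RPKM (reads per kilobase of exon, scaled to the depth of the library) was multiplied by exon length and by 45 for MEF and Dox (-) and 44 for Dox (+), in units of 1e+06 reads. An exon of 150 bases with 0 reads could therefore lie up to 0.444 to 0.455 RPKM (3 reads). With 1 library per condition no difference could be tested against replicates, and every interval below is an exact 95% interval for counting error only. A read that spans a junction can count in both exons, so these intervals are too narrow. The level of a gene is the RPKM of its highest exon. A gene was called higher or lower when it exceeded 10 RPKM in at least 1 library and differed more than 4-fold. The checks followed the labels. Mitf was at 1.52 RPKM in MEF, 30.8 RPKM in Dox (-) and 1544 RPKM in Dox (+), and its target Tyrp1 was at 0, 0.520 and 110 RPKM in the same order. Gapdh was at 3439, 2192 and 6004 RPKM.

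The upstream sequences of 3 members that were highest in Dox (-) are shown because these genes moved together. RefSeq promoters (GRCm38.p6) were at hand for 4 of the 8 members, C3, C3ar1, C5ar1 and C1ra. Each sequence gives the 250 bases before the RefSeq start on the gene's own strand, and capitals mark CANNTG (the general E-box) or TGANTCA (the AP-1 element).
C3, chr17:57228137-57228386, minus strand: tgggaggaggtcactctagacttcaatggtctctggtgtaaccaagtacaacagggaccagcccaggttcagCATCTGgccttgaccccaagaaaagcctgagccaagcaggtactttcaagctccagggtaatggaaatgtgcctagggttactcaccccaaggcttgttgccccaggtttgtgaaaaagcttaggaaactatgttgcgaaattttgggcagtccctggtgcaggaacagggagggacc
C3ar1, chr6:122856158-122856407, minus strand: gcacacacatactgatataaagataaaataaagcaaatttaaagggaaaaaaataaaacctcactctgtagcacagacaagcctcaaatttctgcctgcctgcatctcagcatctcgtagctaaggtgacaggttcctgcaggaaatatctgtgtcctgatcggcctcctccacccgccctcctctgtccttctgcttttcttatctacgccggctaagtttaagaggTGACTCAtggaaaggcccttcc
C5ar1, chr7:16259339-16259588, minus strand: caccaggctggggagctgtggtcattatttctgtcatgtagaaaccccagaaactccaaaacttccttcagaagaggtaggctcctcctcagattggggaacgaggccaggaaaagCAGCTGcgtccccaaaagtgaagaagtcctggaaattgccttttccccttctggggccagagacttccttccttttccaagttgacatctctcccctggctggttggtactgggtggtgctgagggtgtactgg

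Neither E-box preferred by MITF, CATGTG or CACGTG, occurred on either strand in the upstream 250 bases of C3, C3ar1, C5ar1 or C1ra. CATGTG occurred in 12.3% and CACGTG in 6.02% of all 32851 promoters of the same length. GAGGAA, a core bound by the myeloid factor PU.1, was also absent from these 4 windows and was present in 23.3% of all promoters. Of the interferon elements only TTCNNNGAA was searched for. It was absent from the 4 windows and was present in 7.02% of all promoters. CANNTG, which also matches both MITF letters, occurred in 3 of the 4 windows and in 66.2% of all promoters. TGANTCA occurred in the C3ar1 window, 22 bases before the start, and in 6.75% of all promoters. The window of C1ra is not shown, because 216 of its 250 bases lay inside an annotated exon of the gene. These matches describe letters in a short window and no binding was measured.

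In the comparison of Dox (+) with Dox (-), 4 of the 8 members were called lower in Dox (+) and 0 were called higher. The 4 were C3, C4b, C3ar1 and C5ar1. Each of these passed 10 RPKM in Dox (-) but not in Dox (+), so none of them could be called higher. Mitf was induced by 6 days of Dox, and no library had Dox without the Mitf transgene. Effects of Dox and of Mitf therefore cannot be told apart in this comparison. Of all 13307 genes tested, 5.41% were called lower and 1.64% higher. The median log2 fold change was -2.42 over the 8 members and 0.23 over all genes tested. The log2 fold changes of genes were taken after adding 1 RPKM, which understates the change of low genes. Nothing was added for the folds of exons. By exon, 56.6% of the 175 member exons were more than 4-fold lower in Dox (+) and 5.71% were more than 4-fold higher, beside 7.8% and 2.53% of all 198909 exons with more than 3 reads in either library. Of the 99 lower exons, 48 were of C3 and 41 of C4b, so this share mainly follows the exon number of these genes. The plot of exon levels and the plot of exon folds show the 8 genes side by side.

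**Figure D1:**
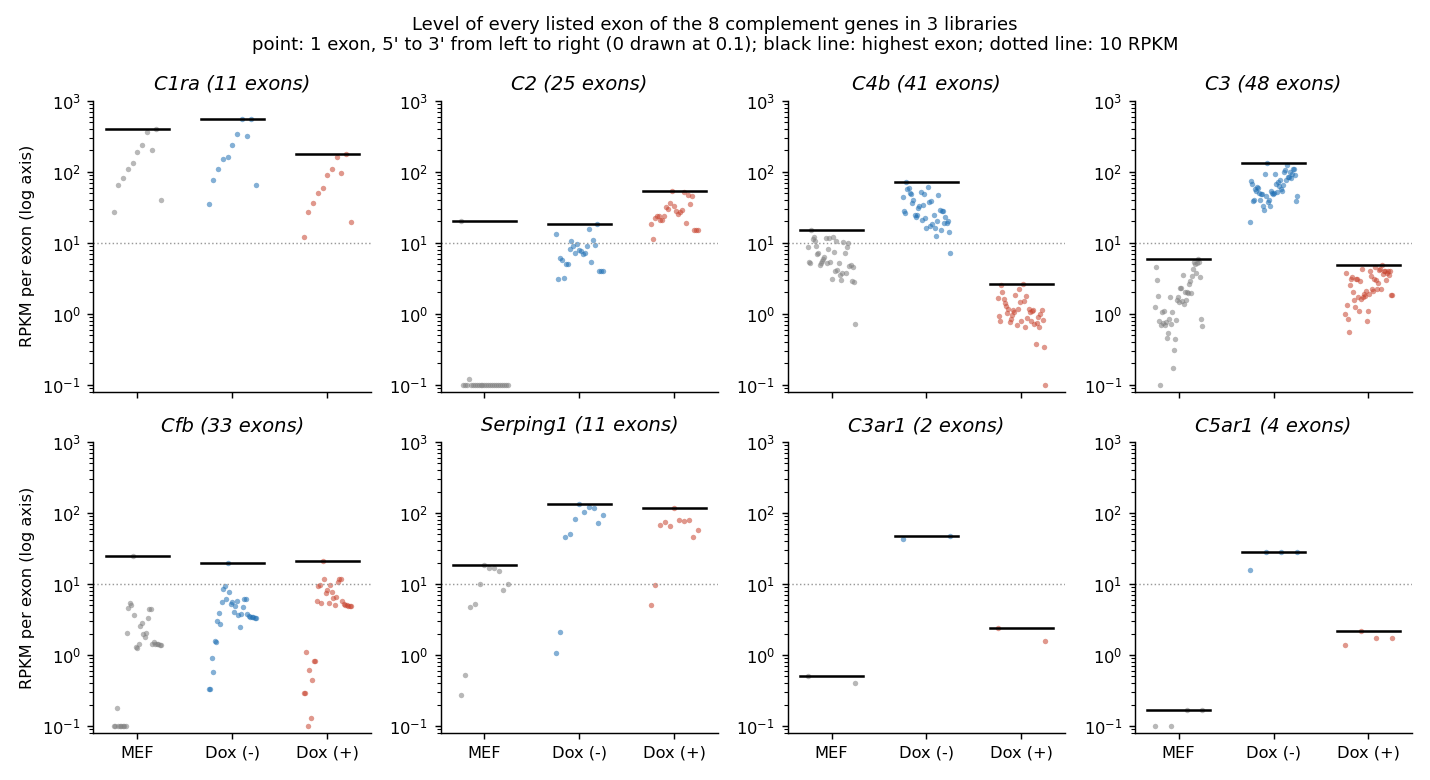
RPKM (log axis) of every listed exon of the 8 genes in the libraries MEF, Dox (-) and Dox (+); each point is 1 exon in 5′ to 3′ order, a black line marks the highest exon and the dotted line 10 RPKM. C3, C4b, C3ar1 and C5ar1 were highest in Dox (-), C1ra rose from exon 1 to exon 10, with a dip at exon 9, and dropped at exon 11 in each library, and C2 had 1 exon near 20.3 RPKM in MEF with nearly all others at 0.

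**Figure D2:**
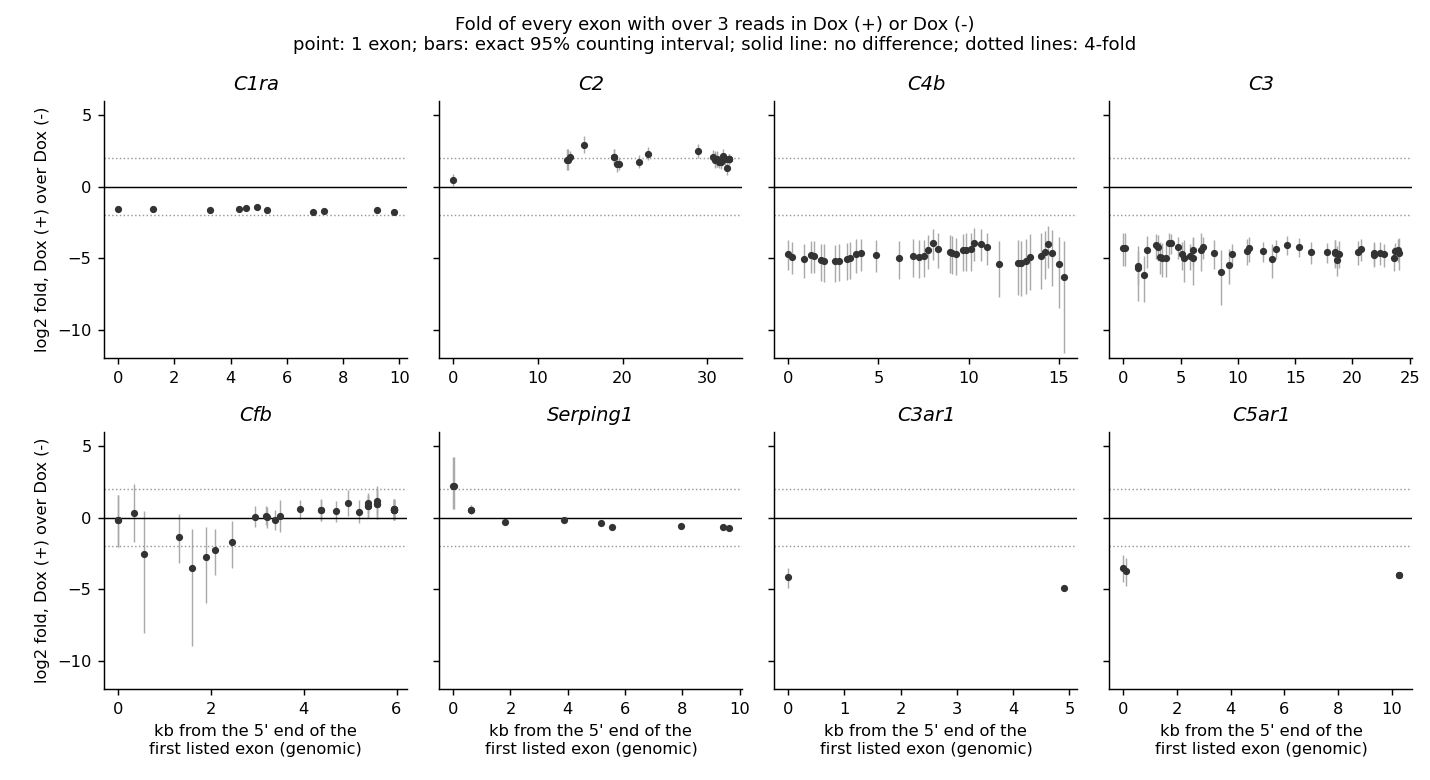
Log2 fold of Dox (+) over Dox (-) for every exon with more than 3 reads, against the genomic distance in kb from the 5′ end of the first listed exon; bars are exact 95% counting intervals and dotted lines mark 4-fold. All 48 exons of C3 and all 41 of C4b lay below the lower dotted line, all 25 of C2 lay above 0, and Cfb and Serping1 changed sign along the gene.

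C1ra encodes the protease C1r, which is activated on C1q. By the highest exon it was the most abundant member in every library. Its highest exon was at 397 RPKM in MEF, 553 RPKM in Dox (-) and 180 RPKM in Dox (+). Dox (+) was the lowest of the 3 libraries and Dox (-) the highest. Reads summed over its 11 exons were 12614 in MEF, 18045 in Dox (-) and 5678 in Dox (+). This made Dox (+) 3.11-fold lower than Dox (-) (interval 3.02 to 3.20), below the 4-fold call. The 11 exons agreed closely, from 2.72-fold to 3.43-fold lower, as the plot of exon folds shows. All 11 were 1.17-fold to 1.63-fold higher in Dox (-) than in MEF and 2.06-fold to 2.47-fold lower in Dox (+) than in MEF. C1ra (chr6:124512405-124523443, plus strand) has a near-identical neighbour, C1rb, at 207, 455 and 109 RPKM, and how reads were split between both is uncertain.

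C2 encodes the serine protease that joins C4b in the classical C3 convertase. Its highest exon was at 20.3 RPKM in MEF, 18.2 RPKM in Dox (-) and 53.5 RPKM in Dox (+). By this measure MEF and Dox (-) were close and Dox (+) was higher, without reaching the call. The measure rested on different exons. In MEF the highest was the first listed exon (chr17:34895407-34895547), which had 129 reads in MEF, 84 in Dox (-) and 115 in Dox (+) and overlaps an exon of Zbtb12 on the opposite strand. The kit did not mark strand, so reads of both genes cannot be told apart there. Over the other 24 exons, counted at 17 positions that do not overlap, C2 had 1 read in MEF, 812 in Dox (-) and 3068 in Dox (+). C2 was thus close to undetected in MEF. Dox (+) was 3.86-fold higher than Dox (-) on these positions (interval 3.58 to 4.18), and all 25 exons pointed the same way. C2 was the only member whose exons were all higher in Dox (+) than in Dox (-). The annotated read-through gene Gm20547 lies on the same strand. It overlaps 20 of the 25 listed C2 exons and 30 of the 33 listed Cfb exons, so part of these reads may belong to it. Gm20547 was at 4.99, 66.7 and 174 RPKM in MEF, Dox (-) and Dox (+). Listed C2 exons 5, 9, 10 and 22 overlap neither Gm20547 nor Zbtb12. They were 7.50-, 3.02-, 3.36- and 2.52-fold higher in Dox (+) than in Dox (-). How reads were split between C2 and Gm20547 was not tested.

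C4b encodes complement C4, the thioester protein that attaches to targets when cleaved. It was at 15.0 RPKM in MEF, 70.7 RPKM in Dox (-) and 2.62 RPKM in Dox (+). Dox (-) was the highest library, MEF was intermediate and Dox (+) was the lowest. Summed reads over its 41 exons were 1409, 6614 and 239. Dox (+) was 27.1-fold lower than Dox (-) (interval 23.8 to 30.9), and all 41 exons were more than 4-fold lower, from 15.4-fold to 78.2-fold. C4b was also the only member called lower in Dox (+) than in MEF. It was 5.76-fold lower there (interval 5.02 to 6.64), with 41 of 41 exons lower and 35 of them past 4-fold. The upstream and downstream stretches, split at the midpoint of the gene, were 30.3-fold and 23.6-fold lower in Dox (+) than in Dox (-), with overlapping intervals of 25.3 to 36.6 and 19.6 to 28.6. The near-identical C4a had no listed exon, so its reads, if any, may be among those of C4b (chr17:34728380-34743882, minus strand).

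C3 encodes the central component of the cascade. It was at 5.82 RPKM in MEF, 134 RPKM in Dox (-) and 4.81 RPKM in Dox (+). Dox (-) stood alone, and the other two libraries were near one another. Summed reads over 41 positions were 387 in MEF, 12884 in Dox (-) and 524 in Dox (+). Dox (+) was 24.0-fold lower than Dox (-) (interval 22.0 to 26.3) and Dox (-) was 33.3-fold higher than MEF (interval 30.1 to 36.9). All 48 listed exons were more than 4-fold apart in both comparisons. The highest exon and the summed reads disagreed on the small step from MEF to Dox (+). The highest exon was 1.21-fold lower in Dox (+), whereas the summed reads were 1.38-fold higher (interval 1.21 to 1.58). Along C3, split at its midpoint, the step was uneven, with 132 and 242 reads in the upstream stretch (1.88-fold higher in Dox (+), interval 1.51 to 2.34) and 255 and 282 reads in the downstream stretch (1.13-fold, interval 0.951 to 1.35).

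The C3 level in Dox (-) was set by an exon of 21 bases with 127 reads, and the Cfb level in every library by an exon of 17 bases. Both are shown because they are shorter than usual exons, and a read needs to touch only part of such an exon to be counted against its small length. Both sequences were read from GENCODE M21 transcripts on the gene's strand.
C3, chr17:57221998-57222018, minus strand: atctgggatgtggtagagaag
Cfb, chr17:34859009-34859025, minus strand: tttctaccaaatgattg

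Cfb encodes factor B, the protease of the alternative C3 convertase. Its 17-base exon held 19 reads in MEF, 15 in Dox (-) and 16 in Dox (+), which gave 24.8, 19.6 and 21.4 RPKM. By this level the 3 libraries were alike. Reads summed over 17 positions were 155, 396 and 429. They placed MEF 2.55-fold below Dox (-) (interval 2.12 to 3.10), and Dox (+) and Dox (-) were 1.11-fold apart with an interval of 0.964 to 1.27. This total hid a sign change along the gene, seen in the profile along its exons. In the 5′ stretch (chr17:34859936-34862518, 9 listed exons) there were 2 reads in MEF, 93 in Dox (-) and 25 in Dox (+), which was 3.64-fold lower in Dox (+) than in Dox (-) (interval 2.32 to 5.91). In the 3′ stretch (chr17:34856374-34859573, 24 listed exons) the reads were 153, 303 and 404, which was 1.36-fold higher in Dox (+) (interval 1.17 to 1.59). Both stretches were chosen after the values were seen. The split was placed at the most 3′ exon with 0 reads in MEF. The low MEF count of the 5′ stretch therefore partly follows from that choice. The 3′ end of Cfb faces Nelfe, which is on the opposite strand, ends 2 bases away and was at 179, 149 and 294 RPKM. Whether reads of Nelfe entered the last exons of Cfb was not tested.

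**Figure D3:**
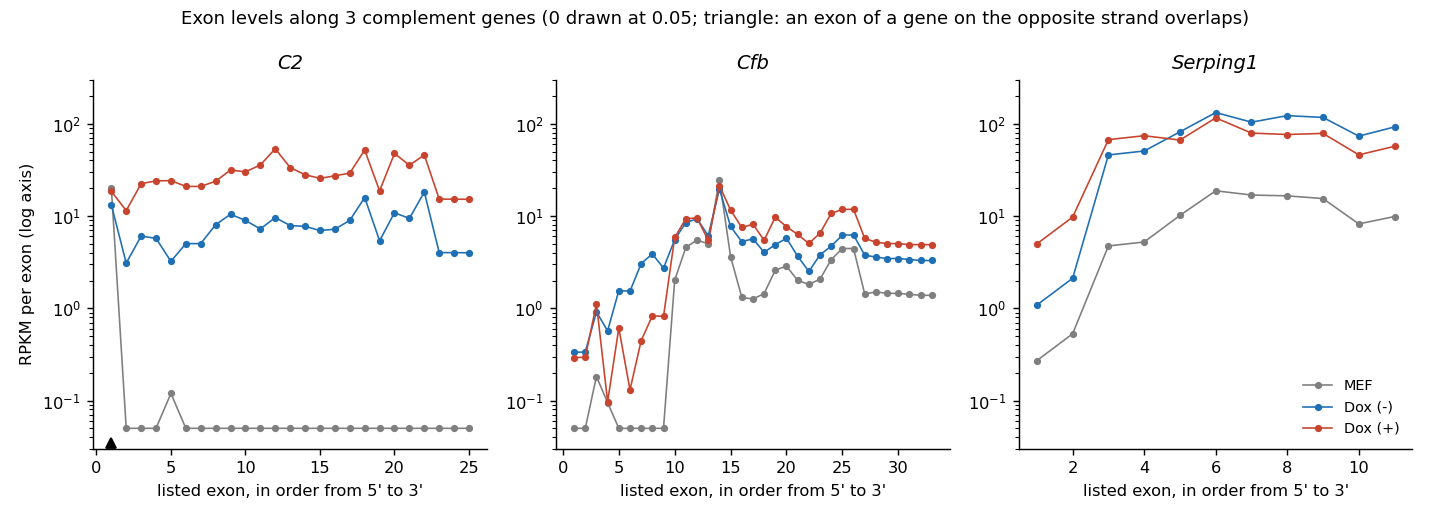
RPKM (log axis) of each listed exon of C2, Cfb and Serping1 in order from 5′ to 3′, with a line per library and a triangle under the 1 C2 exon that overlaps a gene on the opposite strand. C2 fell to 0 or 1 read in MEF after its first exon, the first 9 exons of Cfb were below all others in MEF and Dox (+), and Dox (+) was above Dox (-) in the first 4 exons of Serping1 and below it in the other 7.

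Serping1 encodes the C1 inhibitor, which blocks C1r and C1s. It was at 18.8 RPKM in MEF, 132 RPKM in Dox (-) and 116 RPKM in Dox (+). Both knock-in libraries were high and MEF was low, and by the highest exon no other member was called higher than MEF in both. Summed reads over 8 positions were 970, 7457 and 5429. Dox (-) was 7.69-fold (interval 7.19 to 8.23) and Dox (+) 5.72-fold (interval 5.35 to 6.14) higher than MEF. Dox (+) was 1.34-fold lower than Dox (-) (interval 1.30 to 1.39). The 5′ exons (chr2:84774740-84775444), chosen after the values were seen, had 17, 159 and 240 reads and were 1.54-fold higher in Dox (+) than in Dox (-) (interval 1.26 to 1.90). The remaining exons had 953, 7298 and 5189 reads and were 1.38-fold lower (interval 1.33 to 1.43). The split was placed where the exon fold changed sign. The direction in each stretch follows from that choice, and the intervals do not test it.

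C3ar1 encodes the receptor for the C3 fragment C3a, a G protein-coupled receptor of myeloid cells. Its 2 exons were at 0.499 and 0.404 RPKM in MEF, 43.7 and 47.2 RPKM in Dox (-) and 2.43 and 1.56 RPKM in Dox (+). Dox (-) was far above both other libraries, and Dox (+) was above MEF. Summed reads were 79, 9123 and 303. Dox (+) was 29.4-fold lower than Dox (-) (interval 26.3 to 33.1), yet 3.92-fold higher than MEF (interval 3.05 to 5.09). The latter difference was not a call, since neither library passed 10 RPKM.

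C5ar1 encodes the receptor for C5a, which attracts and activates neutrophils and macrophages. Its highest exon was at 0.171 RPKM in MEF, 28.5 RPKM in Dox (-) and 2.16 RPKM in Dox (+). The order was that of C3ar1. Reads at its 2 exon positions summed to 18, 3145 and 192. Dox (+) was 16.0-fold lower than Dox (-) (interval 13.8 to 18.6) and 10.9-fold higher than MEF (interval 6.72 to 18.8).

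Against the wild-type library the members moved the other way in Dox (-). In the comparison of Dox (-) with MEF, where genotype and passage both differed, 5 of 8 members were called higher (C3, C4b, Serping1, C3ar1 and C5ar1) and 0 lower. Of all 13234 genes tested 8.26% were called higher and 1.21% lower. C3, C3ar1 and C5ar1 passed 10 RPKM in Dox (-) but not in MEF, so they could not be called lower. The median log2 fold change was 2.46 over the members and 0.01 over all genes. Of 175 member exons 76% were more than 4-fold higher in Dox (-) and 0% lower, beside 12.7% and 1.66% of all exons. Of the 133 higher exons, 48 were of C3, 37 of C4b and 24 of C2, so genes with many exons weigh most. C2 was not called by its highest exon, but became the sixth member higher in Dox (-) once exons that overlap a gene on the opposite strand were left out.

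In the comparison of Dox (+) with MEF, 5 members passed 10 RPKM in either library. Of these, Serping1 was called higher and C4b lower. Of all 12941 genes tested 6.55% were called higher and 3.4% lower. Of 172 member exons 29.7% were more than 4-fold higher in Dox (+) and 20.3% lower, beside 11.9% and 4.32% of all exons. All 35 of the lower exons were of C4b, and 24 of the 51 higher exons were of C2. These shares therefore follow the exon number of single genes and do not describe the set. The call of C4b rested on the choice of level, since its median exon and its summed reads stayed below 10 RPKM in MEF. By its summed reads C2 was 25.0-fold higher in Dox (+) than in MEF (interval 21.0 to 30.1) and would join Serping1. Of the 130 summed C2 reads in MEF, 129 lay in the first listed exon, which overlaps Zbtb12. This fold and its interval therefore depend on reads that cannot be assigned to C2. On the other positions C2 had 1 read in MEF and 3068 in Dox (+). The 3 comparisons share libraries and are not independent.

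The wider complement list held 52 genes, of which 46 had a listed exon. C4a, Mbl1, Fcnb, C6, C8b and C9 had none. In all, 30 genes passed 10 RPKM in at least 1 library and 16 did not. Between Dox (+) and Dox (-), 15 of 29 genes were called lower and 0 higher, with a median log2 fold change of -2.02. Without the 8 members these counts were 11 of 21 and 0. Of all genes tested in this comparison, 5.41% were called lower and 1.64% higher. All 29 list genes tested passed 10 RPKM in Dox (-), and 16 of them did in Dox (+). The rest could not be called higher, so the direction was partly fixed by the threshold. Between Dox (-) and MEF, 17 of 30 were called higher and 1 lower, beside 8.26% and 1.21% of all genes tested. Of these 30, 29 passed 10 RPKM in Dox (-) and 17 in MEF, so the same limit held. Between Dox (+) and MEF, 3 of 18 were called higher and 2 lower, beside 6.55% and 3.4% of all genes tested.

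**Figure D4:**
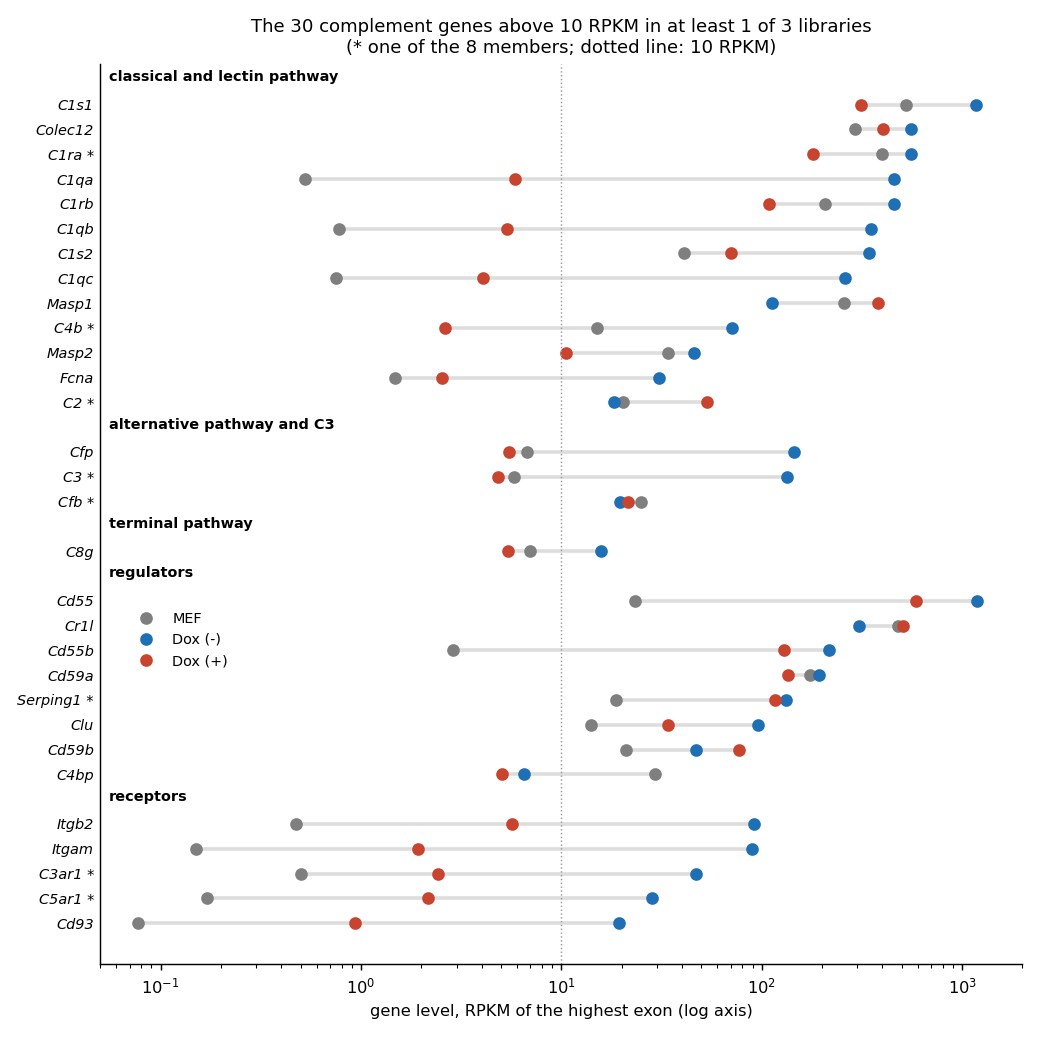
Gene level (RPKM of the highest exon, log axis) of the 30 complement genes above 10 RPKM in at least 1 library, grouped by role, with 1 point for each of MEF, Dox (-) and Dox (+); stars mark the 8 members. The C1q chains and the receptors spanned the widest ranges, with Dox (-) highest, whereas Cd55 and Cd55b were high in both knock-in libraries.

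In the classical and lectin routes, 8 of 13 genes were called lower in Dox (+) than in Dox (-), beside 5.41% of all genes tested. All 13 passed 10 RPKM in Dox (-) and 8 did in Dox (+). The 3 chains of C1q, the recognition molecule, stood furthest apart. C1qa was at 0.523 RPKM in MEF, 455 RPKM in Dox (-) and 5.88 RPKM in Dox (+), C1qb at 0.780, 350 and 5.34 RPKM, and C1qc at 0.754, 260 and 4.08 RPKM. The proteases that C1q activates were abundant in all libraries. C1s1 was at 527, 1167 and 312 RPKM, 3.74-fold lower in Dox (+) than in Dox (-) and so short of a call, and C1s2 was at 40.9, 341 and 70.3 RPKM and was called. C1rb was called lower at 4.17-fold. Of the lectin genes, the ficolin Fcna was at 1.48, 30.9 and 2.53 RPKM and the protease Masp2 at 34.1, 45.9 and 10.6 RPKM, and both were called lower. Masp1 went the other way without a call, at 256, 112 and 379 RPKM. The collectin Colec12 was at 293, 553 and 403 RPKM.

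In the alternative route, Cfp, which encodes the convertase stabiliser properdin, was at 6.70, 145 and 5.48 RPKM in MEF, Dox (-) and Dox (+), 26.5-fold lower in Dox (+) than in Dox (-). This was the gene with the pattern nearest to that of C3. The only terminal-pathway gene above 10 RPKM was C8g, at 6.94, 15.9 and 5.45 RPKM.

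Of the 7 regulators reported here that passed 10 RPKM in Dox (+) or Dox (-), 0 were called higher or lower between Dox (+) and Dox (-). Of all genes tested there, 5.41% were called lower and 1.64% higher, so 0 of 7 does not set the regulators apart. The membrane regulators, which block convertases or the pore, were among these 7. Cd55 was at 23.3, 1187 and 591 RPKM and Cd55b at 2.89, 217 and 129 RPKM, so both were called higher in each knock-in library than in MEF, as Serping1 was. Cd55 and Cd55b are similar in sequence and may share reads. Cd59a was at 174, 193 and 136 RPKM, Cd59b at 20.9, 46.8 and 77.1 RPKM, and Cr1l, the rodent regulator Crry, at 479, 307 and 509 RPKM. Clu was at 14.1, 96.3 and 34.0 RPKM. C4bp ran against the rest and was highest in MEF, at 29.3, 6.54 and 5.05 RPKM. It was called lower in Dox (-) than in MEF by its highest exon. By summed reads, or at a threshold of 30 RPKM, 0 complement genes were called lower there.

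All 5 receptors above 10 RPKM were called lower in Dox (+) than in Dox (-), beside 5.41% of all genes tested. All 5 were also called higher in Dox (-) than in MEF, beside 8.26%. None of these 5 receptors passed 10 RPKM in MEF or Dox (+), so none could be called in the other direction. Besides C3ar1 and C5ar1, these were the complement receptor 3 chains Itgam (0.150, 89.4 and 1.92 RPKM) and Itgb2 (0.473, 91.8 and 5.64 RPKM), and Cd93 (0.0768, 19.4 and 0.932 RPKM). Summed over the 9 receptor genes of the list, the level was 2.06 RPKM in MEF, 283 RPKM in Dox (-) and 14.3 RPKM in Dox (+).

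Markers of macrophages moved with these genes. All 12 listed macrophage markers were above 10 RPKM in Dox (-), 2 were in MEF and 6 in Dox (+). Their summed level was 62.8 RPKM in MEF, 17412 RPKM in Dox (-) and 635 RPKM in Dox (+), and none was at 0 in any library. All 12 were called lower in Dox (+) than in Dox (-), with a median log2 fold change of -4.85. Those not above 10 RPKM in Dox (+) could not be called higher. Over all genes tested there, 5.41% were called lower and 1.64% higher, for this and the marker counts below. The part of macrophage RNA in the levels of C3, C4b, C3ar1, C5ar1 and the wider list was not tested, and in bulk RNA fewer cells of a type and less RNA per cell cannot be told apart. Fibroblast markers were present throughout, with 9 of 10 above 10 RPKM in MEF and 10 of 10 in both other libraries. Their summed level was 19942, 53442 and 13491 RPKM, and 5 of 10 were called lower in Dox (+) than in Dox (-). Of 10 melanocyte markers, 4 were above 10 RPKM in Dox (+) and 0 in the other libraries, with summed levels of 5.04, 15.0 and 275 RPKM. Of 8 hepatocyte markers, 6 had a listed exon, none passed 10 RPKM, and Apoa1 and Ttr were at 0 in every library. Their summed level was 9.62, 6.45 and 2.44 RPKM. Of 8 neutrophil markers, 6 had a listed exon and only Ly6g passed 10 RPKM, with summed levels of 62.6, 298 and 53.5 RPKM and with Ngp and Ltf at 0 in MEF and Dox (+). Of 8 endothelial markers, 1 passed 10 RPKM in Dox (-) and 0 in the others, with summed levels of 10.3, 21.1 and 9.33 RPKM and with Tie1 and Cldn5 at 0 in MEF and Dox (+). Of 14 interferon response genes, 11 were above 10 RPKM in MEF, 14 in Dox (-) and 9 in Dox (+). Of these genes 4 were called lower in Dox (+) than in Dox (-), beside 5.41% of all genes tested. Their median log2 fold change was -1.33. None of 8 housekeeping genes was called, although their median log2 fold change between Dox (+) and Dox (-) was 0.68.

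Other genes shared the patterns of the members. Likeness was the distance between log2 profiles over the 3 libraries, each centred on its own mean, among 11767 other genes above 10 RPKM, and with 3 points it is a description only. The 2 nearest genes were Cfp and Slco1a5 for C3, Nfam1 and Pilra for C3ar1, Arhgap45 and Bin2 for C5ar1, Lgr5 and Sp110 for C4b, Bmpr2 and Nav1 for Serping1, Arhgap11a and Ints6l for C1ra, Nop2 and Hilpda for C2, and Fhdc1 and Gstcd for Cfb. The number of genes within a fixed distance was small for each member with a wide range, and not only for the receptors. A small number does not make the order of the 3 libraries rare, since the macrophage markers were also highest in Dox (-). Within a distance of 0.2 there were 3 genes for C3ar1, 3 for C5ar1, 4 for C3, 0 for C4b, 23 for Serping1, 38 for C1ra and 59 for C2. The flat level of Cfb had 762.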

How the data were processed

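Libraries were made from poly(A) RNA with an unstranded kit. Per the labels and the submitters' processing notes, the authors used bcl2fastq 2.17.1.14, TopHat2 2.0.10 on mm10 and bedtools to count reads per Ensembl exon, and deposited RPKM values. Exon identifiers were matched to GENCODE M21 (228132 matches). The table has 3 value columns that match a sample by name. 1 further column matched no label and was not used. Reads were recovered from RPKM with a whole-number depth per library, searched from 20 to 80 in units of 1e+06 reads. A gene's level was its highest exon, and the thresholds of 10 RPKM and 4-fold follow the methods of the study. With 1 library per condition no test was run. Exact intervals came from SciPy 1.17.1 and figures from matplotlib 3.10.9.

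Genes were named by rule: every member, every gene of the complement list above 10 RPKM, the marker lists by counts, Mitf, Tyrp1 and Gapdh as checks, and the 2 genes nearest in pattern to each member. A gene of the complement list is not reported here and was left out of its counts. Members and lists were chosen with earlier results of these data known. Stretches of C2, Cfb and Serping1 and the motifs CANNTG and TGANTCA were chosen after the values or letters were seen. Comparisons with melanocytes were not run.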

Additional observations from a re-analysis of the deposited data

How the results depend on the processing

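The 4 members called lower in Dox (+) than in Dox (-) and the 5 called higher in Dox (-) than in MEF were the same genes under every alternative except a threshold of 30 RPKM, which dropped C5ar1 from both, a 2-fold threshold, which added C1ra to the lower genes and C2 as 1 member higher in Dox (+), and leaving out exons with a gene on the opposite strand (added after seeing the data), which added C2 in Dox (-). No log2 fold change of a called member changed sign in its 6 alternatives, and rescaling the libraries by the median ratio changed no member call. Collapsing overlapping exons kept every share of member exons within 1.5 times. Counts against MEF depended on the settings, and where fewer or more genes entered, the threshold itself is the cause. Of the complement list, genes higher and lower in Dox (+) than in MEF numbered 10 and 4 at 1 RPKM, 13 and 6 with no threshold, and 6 and 4 at 2-fold. The lower count was 0 at 30 RPKM, 1 by the median exon and 0 by summed reads. Members higher in Dox (+) than in MEF numbered 3 at 1 RPKM, 3 with no threshold, and 2 at 2-fold, by the median exon, by summed reads and without exons facing another gene. Members lower there numbered 2 at 2-fold and 0 at 30 RPKM, by the median exon and by summed reads. With no threshold 27 complement genes were lower in Dox (+) than in Dox (-) and 27 higher in Dox (-) than in MEF. At 2-fold 2 exceeded their Dox (-) level after Dox, and 2 were lower in Dox (-) than in MEF, beside 0 at 30 RPKM and 0 by summed reads. No replicate could be left out, no paired analysis was possible because each condition had 1 library, and comparisons with melanocytes were not run. Depth limits mainly C2, C3ar1, C5ar1 and Cfb, whose reads in MEF were few.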
